A study of Mus musculus with 6 samples.

Results

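The genes described here are the 10 mouse genes of major histocompatibility complex (MHC) class II and its regulators, taken by gene name from a table of 56748 genes. All 10 were found: the classical chains H2-Aa, H2-Ab1 and H2-Eb1, the peptide editors H2-DMa, H2-DMb1 and H2-DMb2, the editor's inhibitors H2-Oa and H2-Ob, the invariant chain Cd74, and the transactivator Ciita. They were measured by bulk RNA sequencing of mouse samples carrying MLL-AF9 leukemia, an acute myeloid leukemia driven by a fusion of the MLL and AF9 proteins. The 2 groups were 3 libraries with genotype Rbm5 WT (numbers 25, 27 and 29) and 3 with genotype Rbm5 KO (numbers 31, 32 and 40), and both groups carried MLL-AF9. RBM5 is an RNA-binding protein of the splicing machinery, and the series set out to learn how its loss alters the gene program of this leukemia. The labels give the source as whole bone marrow and, in another place, as cultured cells, and which one applies was not settled. The making of the Rbm5 allele and the mice's strain, sex and age were not stated. The protocol counts the samples as biological replicates, and where 2 came from 1 culture the p-values would cover technical spread only.

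MHC class II molecules are pairs of an alpha and a beta chain that carry peptides from the endosome to the cell surface, where helper T cells read them. The invariant chain fills the groove while the pair travels, the DM heterodimer removes its last fragment and loads peptide, and the DO heterodimer holds DM back. CIITA switches these genes on together by binding to a complex of RFX, CREB and NF-Y factors on their promoters. In bone marrow the known strong expressers are B cells, dendritic cells and some monocytes, and interferon gamma can induce the genes in many other cells.

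Class II promoters are known to carry the X and Y boxes that this complex binds, and stretches are shown so that they can be read beside the values. They come from the 5 members in which both sets of letters were found at the distances given below, and from H2-DMb2, where only those of the Y box are marked. H2-DMa, which has ATTGG in 1 of its windows but not the pair, is not shown. RefSeq promoters (build GRCm38.p6, 250 bases before to 50 after a start) were found for 7 of the 10 members: H2-Aa, H2-Eb1, H2-DMa, H2-DMb1, H2-DMb2, H2-Oa and H2-Ob. Each line reads 5′ to 3′ on the gene's strand. Capitals mark GNAAC, the core of the X box that RFX reads, and ATTGG, the Y box that NF-Y reads.
H2-Ob: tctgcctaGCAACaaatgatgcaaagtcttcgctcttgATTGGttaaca
H2-Oa: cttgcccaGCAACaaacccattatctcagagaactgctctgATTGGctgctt
H2-Aa: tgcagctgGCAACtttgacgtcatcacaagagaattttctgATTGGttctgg
H2-Eb1: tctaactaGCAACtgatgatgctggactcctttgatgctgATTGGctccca
H2-DMb1: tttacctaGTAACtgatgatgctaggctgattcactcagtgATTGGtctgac
H2-DMb2: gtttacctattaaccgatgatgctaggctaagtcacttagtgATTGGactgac
The stretches lie at chr17:34238810-34238858 (H2-Ob, plus strand), chr17:34092295-34092346 (H2-Oa, plus), chr17:34287861-34287912 (H2-Aa, minus), chr17:34305768-34305818 (H2-Eb1, plus), chr17:34153089-34153140 (H2-DMb1, plus) and chr17:34145117-34145169 (H2-DMb2, plus).

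In 5 of the 7 genes GNAAC was followed by ATTGG, with starts 30 bases apart in H2-Ob, 32 in H2-Eb1 and 33 in H2-Oa, H2-Aa and H2-DMb1. A search on both strands for the pair, with starts 28 to 36 bases apart, found it in 508 of 32851 RefSeq promoter windows of 300 bases (1.55%). By gene, it was found in 475 of 27025 (1.76%). ATTGG alone was in 37.4% of the windows and GNAAC alone in 84.8%, and the 2 motifs cannot overlap at these distances. The pair and its spacing were set after the members' promoters had been read, so the counts are a description. H2-DMb2 has the ATTGG but no GNAAC at such a distance from it, and neither of the 2 windows of H2-DMa holds the pair. H2-Ob, which fell, and H2-Aa and H2-Eb1, which did not pass the test, all hold it.

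The Rbm5 transcript was read beside the labels, and its level did not fall in KO. It was at 260.4 ± 13.1 CPM against 205.0 ± 28.1 CPM in WT (counts scaled to library size with TMM factors, mean ± SD, n = 3 per group, edgeR adjusted p = 0.107). Since the making of the allele was not stated, this count over the whole gene cannot tell whether RBM5 was lost. The Y-linked Ddx3y had 0 counts in each WT library and 2645, 2674 and 3311 in the KO libraries, so sex and label cannot be told apart. Xist, the X-inactivation RNA, was at 1418.7 ± 184.6 CPM in WT and at 13.02, 192.2 and 32.5 CPM in KO 31, 32 and 40, highest among KO in KO 32. KO 32 is also the lowest KO library for H2-Aa, H2-Eb1, Cd74 and Ciita below, and a link between these values was not tested. WT and KO therefore stand below for the labels. Library totals were 26359299 to 31807588 counts. The 12 markers of MLL-AF9 leukemia and myeloid progenitors, Hoxa9, Meis1 and Mpo among them, were detected in every library, with summed levels of 3919 to 4935 CPM in WT and 5299 to 7039 CPM in KO, and 3 of them rose while Ctsg and Hoxa9 fell. The number that rose was 1 without WT 27, KO 31 or KO 40, and the number that fell was 1 without any one WT library and 0 without any one KO library. Of 15963 genes tested, 8.57% passed (quasi-likelihood test in edgeR, threshold 0.05 after Benjamini-Hochberg adjustment over all genes), 5.45% higher and 3.12% lower in KO, and the groups did not overlap in 33.7%. With total counts as the only scaling the split of 870 higher and 498 lower became 597 higher and 682 lower.

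The class II genes did not move as a block. H2-Ab1 and H2-Ob fell in KO, 0 members rose, and 8 did not pass the test. Over all genes tested, 3.12% were lower and 5.45% higher. At an unadjusted p under 0.05 there were 3 members, H2-Ab1, H2-Ob and H2-Oa, each with a negative fold change, against 26.9% of all genes tested. DESeq2 called 2 lower and 0 higher. The groups did not overlap in H2-Ab1, H2-Ob and H2-Oa, 3 of the 10 members, beside 33.7% of all genes tested. The median log2 fold change (KO minus WT) of the 10 members was 0.18, beside -0.01 over all genes tested.

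**Figure D1:**
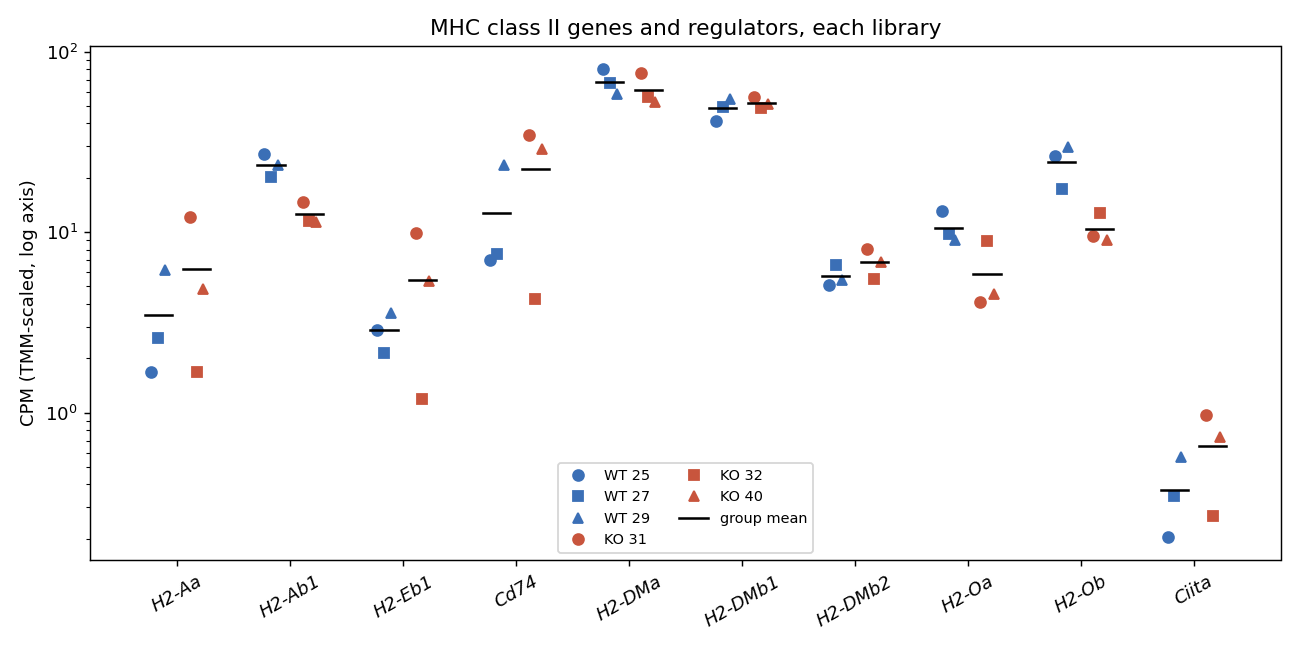
CPM (TMM-scaled, log axis) of the 10 genes in each library, blue for WT and red for KO, with black bars for group means (n = 3 each). H2-Ab1, H2-Ob and H2-Oa separate the groups, while H2-Aa, H2-Eb1 and Cd74 spread most widely within them.

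Among the classical chains, the beta chain H2-Ab1 fell, while its alpha partner H2-Aa did not pass the test. H2-Ab1 (ENSMUSG00000073421, chromosome 17, 34476663 to 34488393 as deposited, without a named build) was at 26.9, 20.3 and 23.5 CPM in WT 25, 27 and 29, and at 14.7, 11.5 and 11.4 CPM in KO 31, 32 and 40. Every KO library lay below every WT library. The means were 23.6 ± 3.31 and 12.5 ± 1.89 CPM (SD, n = 3 each), a log2 fold change of -0.91 ± 0.17 SE (95% interval -1.31 to -0.51, edgeR adjusted p = 0.0224). The adjusted p was 0.0633, 0.0543, 0.0507 and 0.085 without WT 25, WT 29, KO 32 and KO 40, while the fold change stayed between -1.04 and -0.81.

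H2-Aa (ENSMUSG00000036594) had 57, 75 and 194 counts in WT 25, 27 and 29, or 1.68, 2.60 and 6.15 CPM. In KO 31, 32 and 40 it had 326, 44 and 119 counts, or 12.1, 1.68 and 4.86 CPM. KO 31 held the highest value and KO 32 one as low as WT 25, so the groups overlapped. The log2 fold change was 0.84 (95% interval -0.96 to 2.64, edgeR adjusted p = 0.527), and -0.091 without KO 31.

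H2-Eb1 (ENSMUSG00000060586), the beta chain of the second class II pair, repeated the order of H2-Aa at the top and bottom of KO. It was at 2.88, 2.15 and 3.58 CPM in WT 25, 27 and 29 and at 9.86, 1.19 and 5.35 CPM in KO 31, 32 and 40 (log2 fold change 0.93, 95% interval -0.61 to 2.47, edgeR adjusted p = 0.411). Its alpha partner H2-Ea, a gene that some common laboratory strains do not transcribe, had 0 counts in all 6 libraries, which allows up to 3 counts in each. H2-Eb2, a further beta chain gene just beyond H2-Eb1, was at 2.26, 1.63 and 0.920 CPM in WT and 0.446, 0.573 and 0.449 CPM in KO. Its groups did not overlap, and its log2 fold change of -1.70 had an edgeR adjusted p of 0.0565 (it passed with DESeq2).

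The count of H2-Aa relative to that of H2-Ab1 in the same library varied widely. The ratio was 0.0622, 0.128 and 0.262 in WT 25, 27 and 29 and 0.823, 0.146 and 0.428 in KO 31, 32 and 40. KO 32 lay within the WT range, and the mean log2 ratio was 1.54 higher in KO (exact 2-sided permutation test p = 0.2, where 3 libraries against 3 allow no less than 0.1). For Cd74 to H2-Ab1 the log2 ratio was 1.495 higher in KO (exact permutation p = 0.3). The adjusted p was 0.4 for each of 6 such ratios.

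The invariant chain Cd74 (ENSMUSG00000024610, chromosome 18) had the widest spread within groups of all members. It was at 7.03, 7.54 and 23.6 CPM in WT 25, 27 and 29, and at 34.4, 4.24 and 28.8 CPM in KO 31, 32 and 40. WT 29 thus stood near KO 31 and KO 40, and KO 32 below every WT library. The log2 fold change was 0.82 (95% interval -1.28 to 2.92, edgeR adjusted p = 0.59). Its within-group SD of log2 CPM, 1.31, was at the 99.6th percentile of the genes tested, and those of H2-Aa and H2-Eb1 were at the 99.1st and 98.7th. H2-Ab1, by contrast, was at the 44.3rd.

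Ciita (ENSMUSG00000022504, chromosome 16, 10297923 to 10346282), the master switch of the pathway, was barely detected. It had 7, 10 and 18 counts in WT 25, 27 and 29 and 26, 7 and 18 in KO 31, 32 and 40. The 95% exact Poisson interval was 2.81 to 14.4 for the 7 counts of WT 25 and 16.98 to 38.1 for the 26 counts of KO 31, and such intervals cover counting error only. The log2 fold change was 0.81 (95% interval -0.61 to 2.22, edgeR adjusted p = 0.441). Dexi, on the other strand, overlaps 25888 of the 48360 bases of Ciita and had up to 269 counts in a library. Whether counting kept the strands apart was not stated.

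H2-Aa, H2-Eb1, Cd74 and Ciita had their extremes within each group in mostly the same libraries, though the full order of the 6 libraries differed between them. For each of the 4, WT 29 was the highest WT library, KO 31 the highest KO library and KO 32 the lowest KO library. The highest library exceeded the lowest 7.23-fold for H2-Aa, 8.32-fold for H2-Eb1, 8.12-fold for Cd74 and 4.70-fold for Ciita, against 2.37-fold for H2-Ab1. H2-DMb1 had the same highest and lowest libraries over a 1.36-fold range. The 4 genes were put together after their values were seen.

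**Figure D2:**
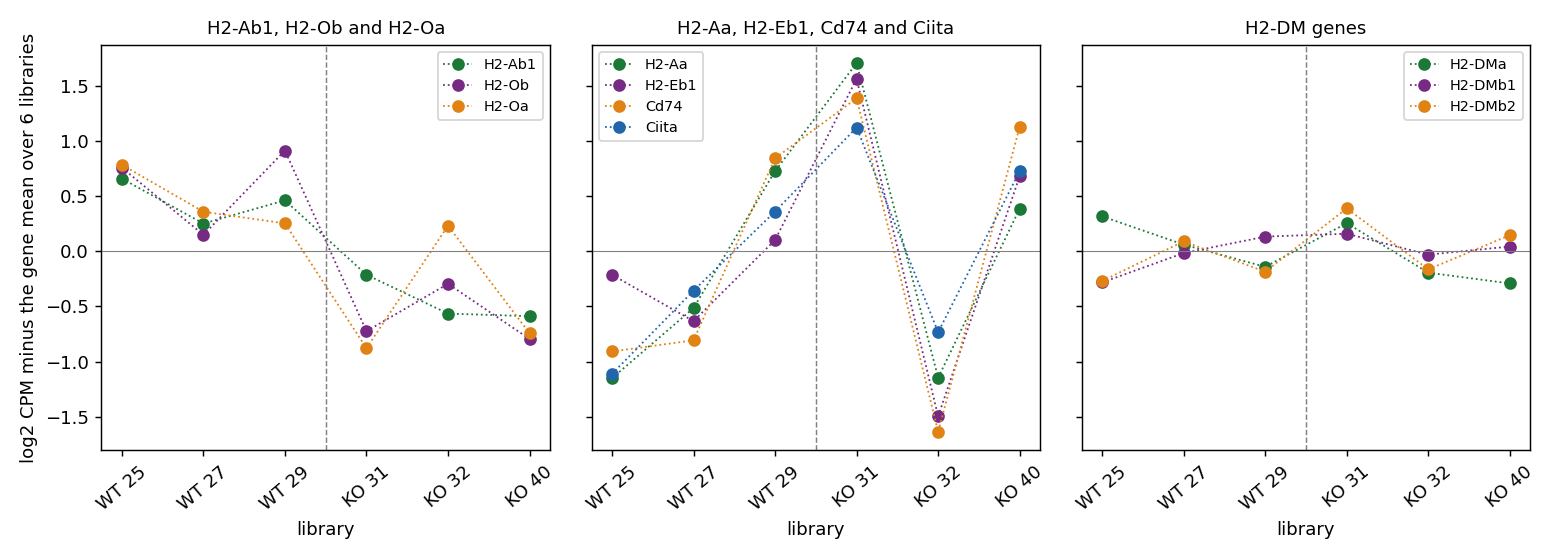
Log2 CPM of each gene minus its mean over the 6 libraries, by library, with the groups parted by the dashed line (dotted lines only join the points of a gene). H2-Ab1, H2-Ob and H2-Oa (left) stand higher in WT, H2-Aa, H2-Eb1, Cd74 and Ciita (middle) are highest in KO 31 and lowest among KO in KO 32, and the H2-DM genes (right) stay within 1.58-fold.

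The DM genes, which edit the peptides, differed little between groups. H2-DMa (ENSMUSG00000037649) was at 79.8, 66.8 and 58.1 CPM in WT 25, 27 and 29 and at 76.5, 56.0 and 52.4 CPM in KO 31, 32 and 40. Its groups overlapped, with a log2 fold change of -0.15 (95% interval -0.54 to 0.25, edgeR adjusted p = 0.628). H2-DMa shares 3094 of its 19561 bases with the opposite-strand Brd2, which had up to 35808 counts, so its own count is uncertain. H2-DMb1 (ENSMUSG00000079547) was at 41.1, 49.4 and 54.8 CPM in WT and 55.8, 49.0 and 51.5 CPM in KO (log2 fold change 0.10, 95% interval -0.19 to 0.39, edgeR adjusted p = 0.639). With total counts as the only scaling it was -0.015, as the median of all genes moved to -0.13. H2-DMb2 (ENSMUSG00000037548) encodes a near-identical beta chain, so reads may be split between both. It was at 5.12 to 6.56 CPM in WT and 5.50 to 8.07 CPM in KO (log2 fold change 0.25, 95% interval -0.31 to 0.81, edgeR adjusted p = 0.547). The intervals leave room for changes of up to 0.81 on the log2 scale in H2-DMb2 and of less in the other 2.

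The DO genes, whose product inhibits DM, had lower values in KO. H2-Ob (ENSMUSG00000041538, chromosome 17, 34457877 to 34473388) was at 26.5, 17.4 and 29.5 CPM in WT 25, 27 and 29 and at 9.48, 12.8 and 9.03 CPM in KO 31, 32 and 40. No KO library reached a WT library. The means were 24.4 ± 6.30 and 10.4 ± 2.04 CPM, and the log2 fold change was -1.23 ± 0.24 SE (95% interval -1.77 to -0.69, edgeR adjusted p = 0.0225). The adjusted p was 0.0581, 0.0586, 0.0705 and 0.0888 without WT 25, WT 29, KO 31 and KO 40, with fold changes of -1.44 to -1.07 whichever library was left out.

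Its partner H2-Oa (ENSMUSG00000024334) was at 13.1, 9.72 and 9.04 CPM in WT 25, 27 and 29 and at 4.13, 8.91 and 4.54 CPM in KO 31, 32 and 40. The groups parted narrowly, since KO 32 was just under WT 29. The log2 fold change was -0.86 (95% interval -1.62 to -0.10, edgeR adjusted p = 0.145), and without KO 32 it was -1.29 (adjusted p = 0.0368). The count of H2-Ob relative to H2-DMb1 was 0.644, 0.351 and 0.537 in WT and 0.170, 0.261 and 0.175 in KO, without overlap (exact permutation p = 0.1, the smallest that 3 against 3 allow). That of H2-Oa relative to H2-DMa was 0.164, 0.145 and 0.155 in WT and 0.0540, 0.159 and 0.0866 in KO, with overlap (exact permutation p = 0.3). Adjusted over the 6 ratios tested, the permutation p was 0.4 for each.

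**Figure D3:**
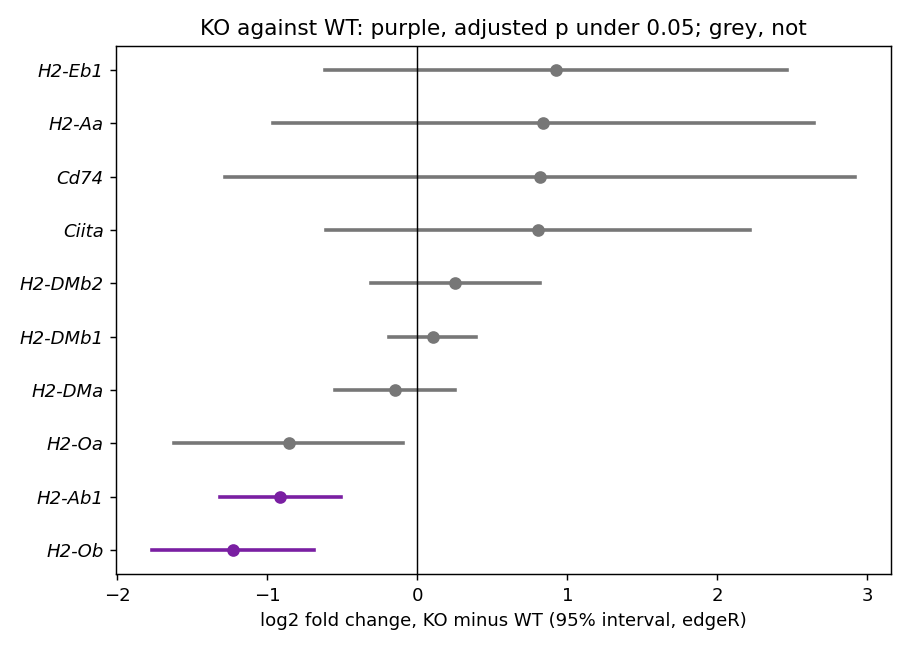
Log2 fold change, KO minus WT, of each gene with its 95% interval from edgeR (3 libraries per group), purple where the adjusted p was under 0.05 and grey elsewhere. The intervals of H2-Ob and H2-Ab1 lie wholly below 0, as does that of H2-Oa, whose adjusted p was 0.145, and those of Cd74, H2-Aa and H2-Eb1 are the widest.

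Per base of transcript, H2-DMb1 and H2-DMa had the highest WT means of the 10 members and Ciita the lowest. With the table's gene lengths, WT levels in CPM per kilobase were 28.8 ± 4.11 for H2-DMb1, 19.8 ± 3.17 for H2-DMa, 9.18 ± 1.29 for H2-Ab1, 7.58 ± 5.62 for Cd74, 7.54 ± 1.53 for H2-Oa and 4.54 ± 1.17 for H2-Ob (SD, n = 3). Then came H2-DMb2 at 3.26 ± 0.436, H2-Eb1 at 1.48 ± 0.368, H2-Aa at 0.916 ± 0.622 and Ciita at 0.0393 ± 0.0193. Among neighbors in this order, the WT ranges of H2-Ab1, Cd74 and H2-Oa overlapped, as did those of H2-Ob and H2-DMb2 and of H2-Eb1 and H2-Aa. In KO, Cd74 (13.4 ± 9.56) stood above H2-Ab1 (4.88 ± 0.738) by its mean, with KO 32 at 2.53 against 4.50 the other way round. With the longest coding transcript of GENCODE M21 as length, the WT level was 3.08 ± 2.09 for H2-Aa and 19.5 ± 2.73 for H2-Ab1, and H2-DMb1 (34.5 ± 4.92) and H2-DMa (34.05 ± 5.44) did not part.

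On chromosome 17 the members share an interval with class I loading genes, which allows neighbors to be compared. From H2-Oa to H2-Eb1 (34311314 to 34535648 in the table's coordinates, 224.3 kb) the table lists 22 genes, of which 8 are members and 9 others were tested. H2-Ob and H2-Ab1, which lie next to each other, were the only genes called there. Of the 9 others 0 passed by edgeR, 5 had an unadjusted p under 0.05 (against 26.9% of all genes tested), and the median log2 fold change of the 9 was -0.38. The peptide transporter gene Tap2, next to H2-Ob, was at 241, 162 and 212 CPM in WT and 158, 149 and 134 CPM in KO, without overlap (log2 fold change -0.48, edgeR adjusted p = 0.0847, and 0.0337 without WT 27). The immunoproteasome genes Psmb8 and Psmb9 had -0.30 and -0.38 (edgeR adjusted p = 0.0945 and 0.0769). H2-Aa, just beyond H2-Ab1, had a value of the opposite sign.

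**Figure D4:**
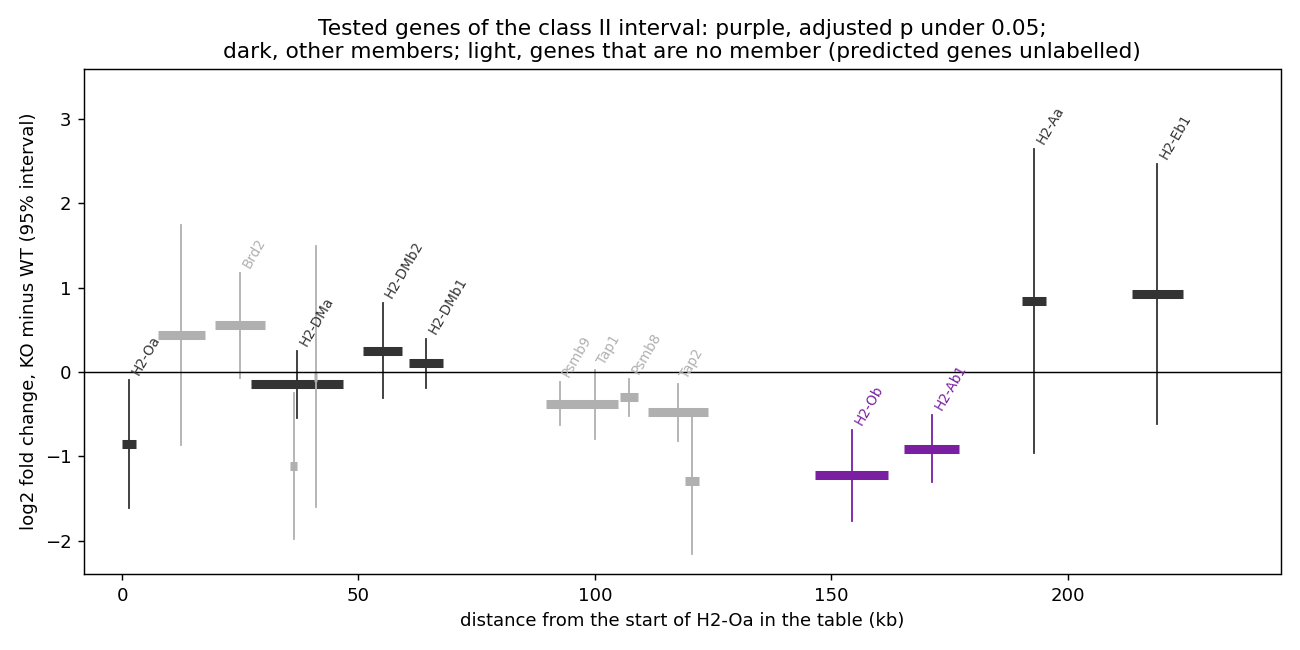
Log2 fold change (KO minus WT, thin lines 95% intervals from edgeR) of the 17 tested genes of the class II interval against distance from the start of H2-Oa in kb, with thick bars as wide as each gene. H2-Ob and H2-Ab1 (purple) are the only genes with an adjusted p under 0.05, and H2-Aa and H2-Eb1 to their right have positive values with wide intervals.

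MHC class I genes, tested for comparison, had 0 of 17 past the edgeR test (0 by DESeq2), and their median log2 fold change was -0.07. An unadjusted p under 0.05 was reached by 4 of them (23.5%, against 26.9% of all genes tested). The class I heavy chains H2-K1 and H2-D1 had -0.05 and 0.05, and Nlrc5, the class I relative of Ciita, -0.62 (edgeR adjusted p = 0.303).

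Of 21 listed regulators of class II genes, Ep300, Spi1 and Jak1 rose and 18 did not pass the test. The list holds Ezh2 beside transcription factors and inducers. Its median log2 fold change was 0.30, and 5.45% of all genes tested were higher in KO. Ep300, a histone acetyltransferase that works with CIITA, was at 174.4 ± 7.88 CPM in WT and 251.4 ± 28.3 CPM in KO, and rose by 0.53 ± 0.10 SE on the log2 scale (edgeR adjusted p = 0.0248). Spi1, the myeloid factor PU.1, and Jak1, a kinase of the interferon gamma receptor, rose by 0.43 each (adjusted p = 0.0368 and 0.0374). Each of the 3 passed in 1 of 6 fits that left out a library, the one without KO 32, and reached 0.075, 0.114 and 0.116. The fit without KO 32 also called the most genes over the table, 1227 (347 to 1227 in the 6 fits). Spi1 and Jak1 did not pass with total counts as the only scaling (0.0843 and 0.0869).

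The factors that hold the class II promoter were expressed in every library and did not pass the test. Rfx5 was at 31.2 to 37.0 CPM in WT and 25.4 to 35.7 CPM in KO. Rfxap and Rfxank had log2 fold changes of 0.19 and 0.31, and the NF-Y subunits Nfya, Nfyb and Nfyc had 0.32, 0.02 and 0.03. Irf1, the interferon-induced activator of Ciita, was at 52.3, 39.4 and 60.9 CPM in WT and 110.9, 64.7 and 115.3 CPM in KO. Its KO libraries all lay above WT, with KO 32 the lowest of them, and 33.7% of all genes tested likewise had no overlap. The log2 fold change of Irf1 was 0.93 (edgeR adjusted p = 0.0682).

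Of 18 interferon gamma response genes 14 were tested and 1 rose, beside 5.45% of all genes tested. The adhesion receptor Icam1 rose by 0.79 ± 0.16 SE on the log2 scale (edgeR adjusted p = 0.025, and 0.0651, 0.0764, 0.0533 and 0.0639 without WT 25, WT 27, KO 31 and KO 40), and 13 did not pass (median 0.54). Without KO 32, 4 passed, against 1 without WT 29 and 0 without WT 25, WT 27, KO 31 or KO 40. Over all genes, too, the fit without KO 32 called the most, 1227 (347 to 1227 in the 6 fits that left out a library). The untested GTPase gene Gbp4 was at 0.0588, 0.139 and 0.127 CPM in WT and 1.12, 0.191 and 1.06 CPM in KO 31, 32 and 40. Ifng, looked at after these values were seen, had 0 counts in each WT library and 8, 1 and 7 in KO. In both, KO 32 was the lowest KO library, but over the 18 genes of the list KO 32 was the lowest KO library for 8, KO 40 for 8 and KO 31 for 1, with 1 tie.

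The list of antigen processing genes, which holds proteases together with genes of vesicle traffic and of class II turnover, had a median log2 fold change of 0.27. Of 15, Ap1m1, a subunit of the AP-1 clathrin adaptor, rose by 0.35 ± 0.08 SE (edgeR adjusted p = 0.0404), and 14 did not pass. Over all genes tested, 5.45% were higher in KO. The adjusted p of Ap1m1 was 0.0552 to 0.121 in the 6 fits that left out a library, and 0.149 with total counts alone. Marchf1, the ubiquitin ligase that takes class II off the surface, was at 10.6, 29.4 and 21.03 CPM in WT and 48.2, 50.1 and 60.2 CPM in KO (log2 fold change 1.38, edgeR adjusted p = 0.0577), without overlap. Overlap was likewise absent in 33.7% of all genes tested. The thiol reductase Ifi30 had 0.70 (adjusted p = 0.0602) and Ctss, the protease that trims the invariant chain, 0.83 (adjusted p = 0.283). Of 6 tested genes of T cell costimulation, Icam1 is the 1 that rose (beside 5.45% of all genes tested), and Cd86 had 1.92 (adjusted p = 0.0752).

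Marker genes of other marrow cells also differed between the groups, and their part in the results above was not tested. In bulk libraries fewer cells of a type and less RNA per cell cannot be told apart. Of 12 neutrophil markers tested 8 rose, and of 17 monocyte and macrophage markers tested 3 rose, against 5.45% of all genes tested. Summed neutrophil markers were at 618 to 2264 CPM in WT and 8755 to 15823 CPM in KO, and summed monocyte and macrophage markers at 1911 to 2763 and 3950 to 6196 CPM. The neutrophil glycoprotein gene Cd177 rose by 1.73 (edgeR adjusted p = 0.00274). The number of neutrophil markers that rose was 5 without WT 27, KO 31 or KO 40. Csf1r, the macrophage growth factor receptor, rose by 1.09 (adjusted p = 0.0214, and 0.0644, 0.064 and 0.0786 without WT 29, KO 31 and KO 40). The number of monocyte and macrophage markers that rose was 0 without KO 31 or KO 40, and 1 without WT 25 or WT 29.

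Most B cell markers were at the edge of detection, and Ighm, Igkc and Cd79b, a chain of the B cell receptor, were the most abundant. Of 19, 12 were too low to test and 8 stayed under 1 CPM in every library. Ms4a1 and Pax5, defining genes of B cells, had 0 counts in some libraries. The sum of the 19 was 114.9 to 179.8 CPM in WT and 92.2 to 236.6 CPM in KO, of which Ighm was 76.5 to 122.2 and 68.5 to 177.8 CPM. The 7 tested had a median log2 fold change of 0.15, and 1 fell, beside 3.12% of all genes tested. DESeq2 called 2 higher and 1 lower, as did the fit without a filter on low counts. Vpreb3, a pre-B cell receptor gene, fell by 3.02 (edgeR adjusted p = 0.0242, and 0.066, 0.0525, 0.0635 and 0.057 without WT 25, WT 27, KO 31 and KO 32). The summed B cell markers were highest in KO 31 and lowest in KO 32, as were H2-Aa, H2-Eb1, Cd74 and Ciita within KO. Gene by gene this did not hold, since KO 31 was the lowest KO library for 10 of the 19 markers, KO 32 for 8 and KO 40 for 1. Cd79b was at 7.47, 10.8 and 26.5 CPM in WT and 7.74, 6.08 and 22.1 CPM in KO, and its groups overlapped. Igkc was at 41.9, 6.42 and 20.96 CPM in KO 31, 32 and 40.

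The summed T cell markers, 12 genes of which 5 stayed under 1 CPM everywhere, were at 5.44, 4.41 and 12.8 CPM in WT 25, 27 and 29 and at 13.5, 4.93 and 15.3 CPM in KO 31, 32 and 40. The 3 higher libraries, WT 29, KO 31 and KO 40, are those with the highest Cd74, a comparison that was not planned. KO 32 was the lowest KO library for 10 of the 12 T cell markers. It was so too for 14 of the 18 monocyte and macrophage markers, and for 5 of the 15 dendritic cell markers. Of the 7 tested, 0 passed by edgeR and DESeq2 called 3. An unadjusted p under 0.05 was reached by 3 of the 7 (42.9%, against 26.9% of all genes tested). Of 15 dendritic cell markers 7 stayed under 1 CPM in every library, among them Xcr1, Clec9a, Zbtb46 and Batf3. The 8 tested had a median log2 fold change of -0.40, and 1 rose, beside 5.45% of all genes tested. Naaa, a lysosomal amidase, rose by 1.58 (edgeR adjusted p = 0.009), and passed in each of the 6 fits that left out a library. Clec10a, a lectin, and Bst2 had -0.82 and -0.40 without overlap, as in 33.7% of all genes tested (edgeR adjusted p = 0.108 and 0.185). The summed dendritic cell markers were at 279.1 to 326.0 CPM in WT and 127.5 to 288.7 CPM in KO. Of 6 plasma cell markers 4 were tested and 0 passed by edgeR (1 at an unadjusted p under 0.05).

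Genes whose levels most resembled those of the members were sought among 11282 well expressed protein-coding genes, by Pearson's r of log2 CPM over the 6 libraries. The mean of the 10 members was followed best by Ubxn1, Dlgap5, Spdl1, Glcci1, Hirip3, Chtop, Cfp, Ube2c, Sec11a and Slc35f5, with r from 0.994 to 0.960. The members themselves had r from -0.44 (H2-Oa) to 0.87 (H2-Aa) with that mean, so it stands for no single member well. H2-Aa, taken alone after this was seen, was followed best by Nusap1, Lmnb2, Mrfap1, Ticrr, Top2a, Ctps2, Kif14, Kif11, Ppp1ca and Astl, with r from 0.993 to 0.964. Several of these, such as Top2a and Kif11, act in mitosis, and their ranges were narrow, Top2a at 411.8 to 618.6 CPM against 1.68 to 12.1 CPM for H2-Aa. H2-Ab1 was followed best by Snrpa, Gtpbp4, Acads, Pum3 and Frat2, with r from 0.998 to 0.991. An r above 0.95 was reached by 16 of the 11282 genes (0.142%) with the mean, 18 (0.160%) with H2-Aa and 154 (1.37%) with H2-Ab1. Over 6 libraries and so many genes, r this high can arise between unrelated genes, and how often it would was not tested. All points share the same libraries and scaling factors.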

How the data were processed

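RNA from 6 libraries was sequenced by a company, per the labels' protocols. The authors deposited raw counts by gene, all whole numbers. Salmon, limma, GRCm38 and mm10 are named in the submitters' processing notes without a role. Whether counts are reads or rounded estimates, and the use of strand, were not stated. The deposited gene length, in bases, is of an unstated gene model (another kind of value, used only for levels per kilobase). None of the 10 members has the same start in GENCODE M21 (GRCm38), so table coordinates carry no build.

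Groups came from sample titles, and no batch or pairing is named. The lowest chi-square per degree of freedom between libraries was 43.9. Genes were kept by filterByExpr (minimum count 10, minimum total 15), scaled by TMM and tested with edgeR 4.0.16 (robust quasi-likelihood, R 4.3.3) by group alone, with Benjamini-Hochberg adjustment and a threshold of 0.05. SEs come from the F statistic and 95% intervals from its degrees of freedom. Within-group SDs and r used log2(CPM + 0.5). On simulated data the procedure recovered 31% of 1.5-fold, 92.3% of 2-fold and 100% of 4-fold changes, and 4.2% of its calls were false. The changed genes were drawn at or above the median level, with the spread typical of their level. Genes as low as Ciita or as widely spread as Cd74 were thus not covered.

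The members and the 13 gene lists (170 symbols, all found) were chosen with earlier results of these data known. Named genes were all members and, of each list, up to 4 called genes with the smallest p or else 2, of which those that bear on the members are given. Others (Rfx5, Rfxap, Rfxank, Nfya, Nfyb, Nfyc, Irf1, Marchf1, Ifi30, Ctss, Cd86, Gbp4, Psmb8, Nlrc5, H2-K1, H2-D1, Igkc, Ighm, Cd79b, Clec10a, Bst2 and absent markers) were named for their role after values were seen. Alternatives were other scalings and filters, DESeq2 1.42.0, limma-voom (limma 3.58.1), gene classes or single libraries left out and, added after the data were seen, a fit without WT 27 and 29 and M21 lengths.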

Additional observations from a re-analysis of the deposited data

How the results depend on the processing

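The number of class II members called was 2 under each of the 10 alternatives that kept all libraries (other scalings, filters, gene classes, DESeq2 and limma-voom), and 0 to 2 when 1 library was left out. It was 0 without WT 25, WT 29 or KO 40, 1 without KO 31, and 0 without WT 27 and 29 together, an arm of 1 WT library assumed to vary like KO. The cause was not tested. H2-Ab1 and H2-Ob kept a negative sign in all 17 alternatives and passed in 12 each. The sign of H2-Aa turned without KO 31 (-0.091, in a range up to 1.54 with 1 library left out). That of H2-DMb1 turned with total counts (-0.015) and without WT 25 (-0.0035, in a range up to 0.20). Genes called over the table numbered 1368, 2475 with DESeq2, 347 to 1227 with 1 library left out and 453 without WT 27 and 29. Listed genes other than members called numbered 23, 43 with DESeq2, 7 to 24 with 1 library left out and 11 without WT 27 and 29. No paired analysis was possible because the groups share no replicate numbers. Ciita gave no value under the filter of 1 CPM. Depth limits Ciita most, at 7 to 26 counts.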
